A study of Capra hircus with 2 samples.

Results

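The guide strands of 9 miRNAs of the paired clusters miR-17-92 (miR-17, miR-18a, miR-19a, miR-20a, miR-19b and miR-92a) and miR-106b-25 (miR-106b, miR-93 and miR-25) were followed in small RNA of the goat mammary gland. Mammary gland tissue of Laoshan dairy goats (Capra hircus), 4 years old and in lactation 3, was taken by surgery 90 days after birth (peak lactation) or 210 days after birth (late lactation). Each stage gave 1 library from a pool of the RNA of 5 goats, and whether the same goats gave both pools is not stated plainly; the spread between animals was not measured and no test between the stages was possible. The libraries held 19044002 clean reads at peak lactation and 7385833 at late lactation, collapsed into 659118 distinct tags, that is, distinct read sequences with their counts. A tag was assigned to a member when it contained nt 2 to 17 of the mature sequence. This gave 1167 tags, of which 277 were found in both libraries, with 56675 reads (0.298% of the clean reads) at peak lactation and 35373 reads (0.479%) at late lactation. Among these tags, 17 held the sequence of 2 members joined in 1 read, with 26 reads at peak lactation and 0 at late lactation. Such reads were counted in both members, and once in the totals.

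A miRNA binds its target mRNAs mainly through its seed, bases 2 to 8 from the 5′ end, so miRNAs that share a seed share most of their predicted targets. The miR-17-92 cluster is cut from 1 long primary transcript that carries all of its hairpins, and it is known for promoting cell division and survival in development and in tumours. Its paralogue miR-106b-25 lies in an intron of MCM7, a gene of the DNA replication licensing helicase, and is transcribed together with it. A further paralogue, miR-106a-363, is known from the mammalian X chromosome, and gives mature miR-19b and miR-92a identical to those of miR-17-92, so the reads of these miRNAs cannot be assigned to 1 locus. In the goat gene annotation (assembly ARS1.2), the genes of the 6 miRNAs of miR-17-92 were direct neighbours with no other gene spanning them, and those of miR-106b, miR-93 and miR-25 lay within MCM7.

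The most abundant tag of each member was the same in both libraries for 9 of 9 members. These tags are shown with the seed in capitals, in DNA letters as deposited, because the seed sets the 4 groups in which the members are compared. The first group shares the seed AAAGTGC and holds 4 members.
miR-17: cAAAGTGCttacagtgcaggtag
miR-20a: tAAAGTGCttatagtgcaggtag
miR-106b: tAAAGTGCtgacagtgcagata
miR-93: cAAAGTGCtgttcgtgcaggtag
The second group holds miR-18a, whose seed differs from that of the first group by 1 base.
miR-18a: tAAGGTGCatctagtgcagatag
The third group holds the miR-19 pair.
miR-19a: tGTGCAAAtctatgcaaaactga
miR-19b: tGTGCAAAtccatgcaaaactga
The fourth group holds 1 member of each cluster.
miR-92a: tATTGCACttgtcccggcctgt
miR-25: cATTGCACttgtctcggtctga
Over nt 2 to 17, miR-19a and miR-19b differed at 1 base, as did miR-17 from miR-20a, miR-17 from miR-106b, and miR-92a from miR-25. Reads were therefore assigned on an exact match, and a read error at that base moves a read to the other member. Tags with 1 mismatch to a single member held between 0.730% and 7.20% as many reads as the exact tags, and those between 2 members numbered 197 reads at peak lactation and 113 at late lactation.

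Levels are given as reads per 1000000 clean reads of the library (RPM), and ratios are late over peak lactation on the log2 scale. Of the 9 members, 8 had a higher level in late lactation and 1, miR-93, a lower one. The 4 members miR-17, miR-18a, miR-19a and miR-19b were at least 2-fold higher, 0 were at least 2-fold lower, and 5 lay under 2-fold. As background, all tags were grouped in the same way by nt 2 to 17 of their most abundant tag. Among the 7324 groups with at least 1 RPM in one library, 39.8% were at least 2-fold higher in late lactation and 26.4% at least 2-fold lower. Among the 1102 groups with at least 10 RPM and a leading tag of 20 to 24 nt, the size of a miRNA, these shares were 28.7% and 27.8%, and the median log2 ratio was -0.20 with quartiles of -1.08 and 1.25. The shares were 28.3% and 31.3% with at least 10 RPM at any length, and 49.3% and 12.8% with at least 1 read in both libraries. The count of members at least 2-fold higher (4 of 9) thus lay near these shares. At any ratio, 8 of 9 members were higher in late lactation. This held for 46.2% of the 1102 groups, 56.1% of the 7324 groups and 69.9% of those with at least 1 read in both libraries. At 1.5-fold, 7 members were higher and 0 lower, beside 36.3% and 39.9% of the 1102 groups. The median over the 9 members was 0.96. miR-18a, miR-19a and miR-19b lay above the upper quartile, and miR-19a and miR-19b were at least 8-fold higher, which held for 8.26% of the 1102 groups. The 95% intervals given below are exact binomial intervals of the counts, which cover counting error only: PCR copies of a molecule are counted as separate reads, and pooling hides how goats differ. In pooled tissue, fewer cells of a type and less RNA per cell cannot be told apart.

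**Figure D1:**
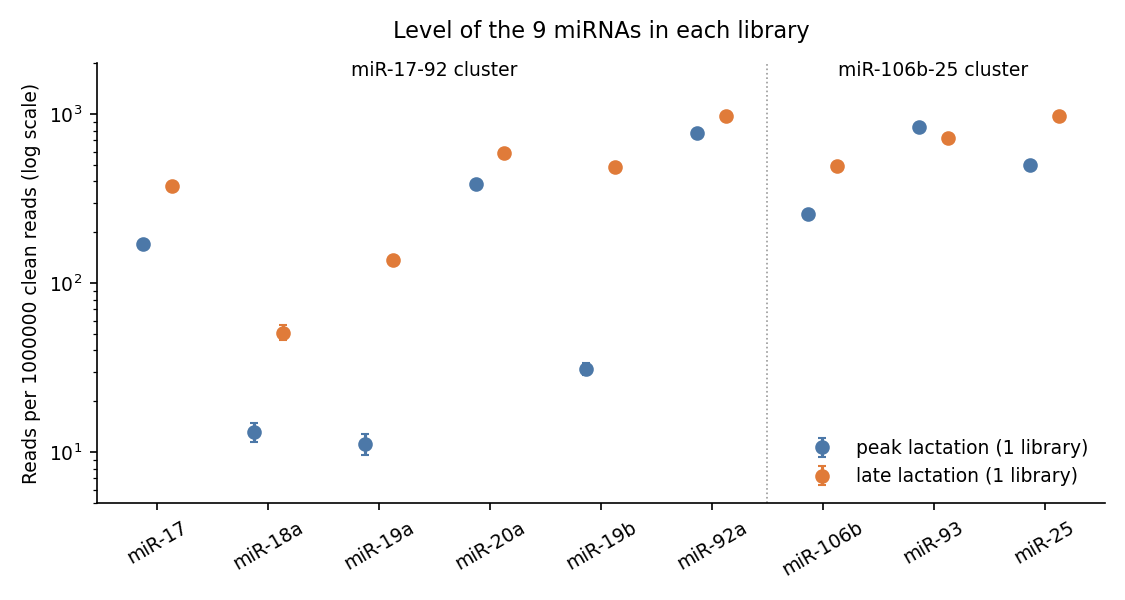
Level of each member in reads per 1000000 clean reads (log scale) in the peak (blue) and late (orange) lactation library. Bars are 95% exact Poisson intervals for counting error, and points stand for 1 library of 5 pooled goats. The levels of miR-18a, miR-19a and miR-19b at peak lactation lie between 11.1 and 31.1 RPM, far under those of the other 6 members.

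The miR-19 pair, which in mouse models of lymphoma accounts for much of the oncogenic activity of the cluster, had the largest ratios of the 9 members. miR-19b had 592 reads (31.1 RPM) at peak lactation and 3581 reads (485 RPM) at late lactation. It was therefore 15.6-fold higher, a log2 ratio of 3.96 (95% interval 3.84 to 4.09). miR-19a had 212 reads (11.1 RPM) at peak lactation and 1009 reads (137 RPM) at late lactation, 12.3-fold higher, a log2 ratio of 3.62 (3.40 to 3.84). Both members of the pair moved in the same direction and by a like amount, and miR-19b held 2.79 times the reads of miR-19a at peak lactation and 3.55 times at late lactation. Summed, the seed group went from 42.2 to 621 RPM, a log2 ratio of 3.88 (3.77 to 3.99).

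miR-18a, a member of the first transcript with a seed of its own, was the least abundant of the 9 in late lactation. Its level was 13.1 RPM (250 reads) at peak lactation and 51.0 RPM (377 reads) at late lactation, 3.89-fold higher, a log2 ratio of 1.96 (1.72 to 2.20). This ratio depended on the forms counted. Its leading tag alone had 203 and 139 reads, a log2 ratio of 0.82, which is under 2-fold.

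The 4 members with the seed AAAGTGC, which is known to target the cell cycle inhibitor CDKN1A and the E2F1 transcript, moved less and not all in one direction. miR-17 went from 172 RPM (3269 reads) to 374 RPM (2764 reads), 2.18-fold, a log2 ratio of 1.12 (1.05 to 1.20). It was the member nearest above the 2-fold line, and tags that began with nt 1 to 18 gave 0.96, its leading tag alone 0.70. miR-106b was at 256 RPM (4870 reads) and 492 RPM (3635 reads), just under 2-fold at a log2 ratio of 0.94 (0.88 to 1.01). miR-20a was at 384 RPM (7317 reads) and 587 RPM (4339 reads), a log2 ratio of 0.61 (0.56 to 0.67). miR-93, the most abundant member at peak lactation, was at 835 RPM (15899 reads) and 724 RPM (5344 reads), a log2 ratio of -0.21 (-0.25 to -0.16), close to the median of the 1102 groups. The sum of these 4 members went from 1646 to 2177 RPM, a log2 ratio of 0.40 (0.38 to 0.43), with miR-93 as its most abundant member in both libraries. Within this group miR-93 held 3.26 times the reads of miR-106b at peak lactation and 1.47 times at late lactation, although both genes lie within MCM7.

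The seed group ATTGCAC joins miR-92a, the last hairpin of miR-17-92, with miR-25, the last of miR-106b-25. miR-92a had 14794 reads (777 RPM) at peak lactation and 7155 reads (969 RPM) at late lactation, for a log2 ratio of 0.32 (0.28 to 0.36). miR-25 had 9498 reads (499 RPM) and 7169 reads (971 RPM), a log2 ratio of 0.96 (0.92 to 1.01), which put it just under 2-fold. Its leading tag alone gave 1.20, which is past 2-fold. The reads of miR-92a were 1.56 times those of miR-25 at peak lactation and 0.998 times at late lactation, so that the pair stood at the same level there. The sum of both went from 1276 to 1939 RPM, a log2 ratio of 0.60 (0.57 to 0.63).

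**Figure D2:**
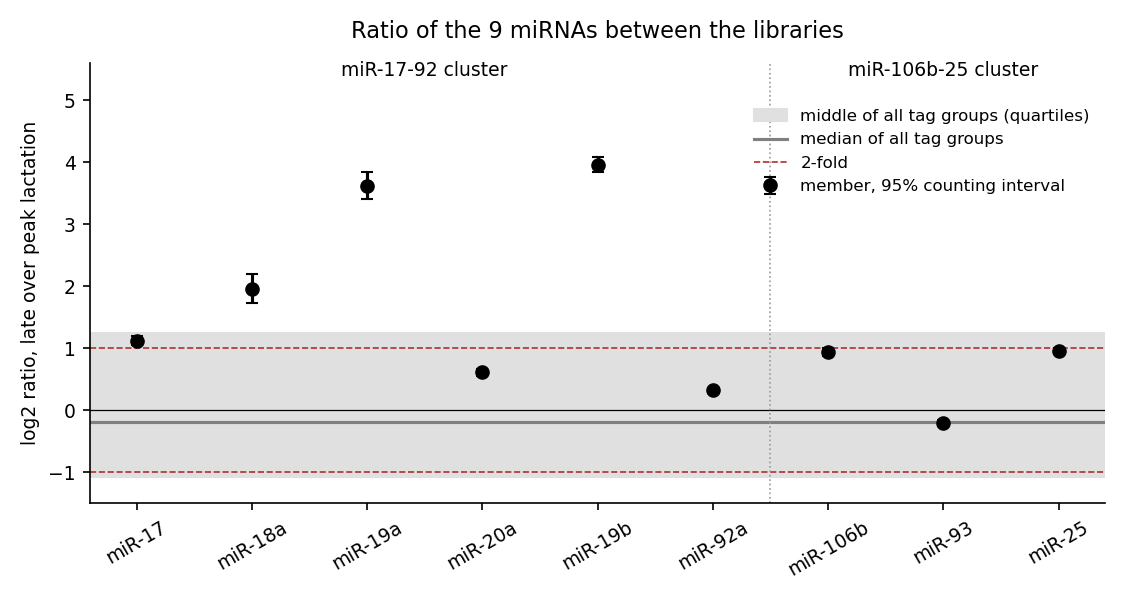
Log2 ratio of each member, late over peak lactation, with its 95% exact binomial interval for counting error. The grey band gives the quartiles (-1.08 and 1.25) and the grey line the median (-0.20) of 1102 tag groups of miRNA size, and the dashed lines 2-fold; miR-18a, miR-19a and miR-19b lie above the band, the other 6 members within it.

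Taken by cluster, the sum of miR-17-92 went from 1388 to 2603 RPM, a log2 ratio of 0.91 (0.88 to 0.93), and that of miR-106b-25 from 1589 to 2186 RPM, a log2 ratio of 0.46 (0.43 to 0.49). Without miR-19a and miR-19b the ratio of miR-17-92 was 0.56 (0.53 to 0.59). The members of a cluster did not keep their proportions. The reads of miR-19b and miR-92a can also come from miR-106a-363, and those of miR-17 and miR-18a include miR-106a and miR-18b, so these are shares of the summed reads and not of 1 primary transcript. miR-92a made up 56.0% of the reads of miR-17-92 at peak lactation and 37.2% at late lactation, and miR-20a 27.7% and 22.6%. miR-19b went from 2.24% to 18.6% and miR-19a from 0.802% to 5.25%, while miR-17 was at 12.4% and 14.4% and miR-18a at 0.946% and 1.96%. There were 24.99 reads of miR-92a for 1 read of miR-19b at peak lactation and 2.00 at late lactation. In miR-106b-25, miR-93 went from 52.5% to 33.1%, miR-25 from 31.4% to 44.4% and miR-106b from 16.1% to 22.5%. The share of each member in its cluster differed between the libraries by more than its counting interval, and the order within miR-106b-25 changed, with miR-93 first at peak lactation and miR-25 first at late lactation.

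**Figure D3:**
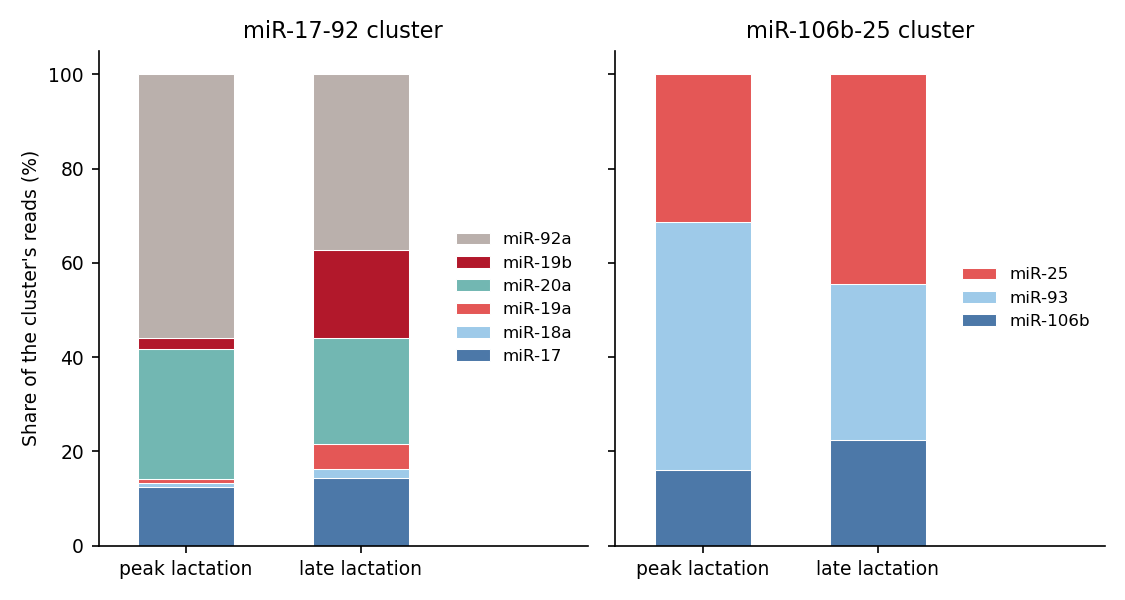
Share of each member in the summed reads of its cluster (%) in the peak and late lactation library, for miR-17-92 on the left and miR-106b-25 on the right. miR-19a and miR-19b together widen from a thin band to 5.25% and 18.6% of miR-17-92, and miR-25 passes miR-93 in miR-106b-25.

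Other miRNAs with the same seeds were searched among tags with the seed at nt 2 to 8. Outside the members, such tags held 26.6 RPM at peak and 40.3 RPM at late lactation for AAAGTGC, and 60.1 and 143 RPM for ATTGCAC, so the members held most reads of each of these seeds. The counts of miR-20b, miR-363 and miR-32 take all tags that hold their nt 2 to 17, at any start. miR-20b, of the miR-106a-363 cluster, had 169 reads at peak and 96 at late lactation, for a log2 ratio of 0.55 (0.17 to 0.92). miR-363, of the same cluster, counted 102 and 245 reads, with a log2 ratio of 2.63 (2.29 to 2.98). miR-32, which has the seed of miR-25 and miR-92a, was read 653 and 635 times, at a log2 ratio of 1.33 (1.17 to 1.49). Further tags with this seed, 1 base from a member over nt 2 to 17, took no name by the read counts used here. miR-92b, which also has this seed, was matched to no tag by these counts. Its mature sequence was not compared with these tags, so whether it is among them was not settled here.
miR-20b: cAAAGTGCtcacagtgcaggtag
miR-363: aATTGCACggtatccatctgcg
miR-32: tATTGCACattactaagttgc
unnamed: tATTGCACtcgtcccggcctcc
second unnamed: tATTGCACttgtttcggcctgt
The first unnamed tag and its forms counted 204 and 85 reads, with a log2 ratio of 0.10 (-0.28 to 0.48), and those of a second unnamed tag, also 1 base from a member, 31 and 52 reads, with a log2 ratio of 2.11 (1.44 to 2.80). Tags with the miR-19 seed outside the members were at 15.3 RPM at peak and 11.4 RPM at late lactation, with a log2 ratio of -0.43 (-0.79 to -0.07). The most abundant of these tags had 93 reads at peak and 7 at late lactation. Without it (an alternative chosen after seeing the data) the others were at 10.4 and 10.4 RPM, a log2 ratio of 0.00 (-0.40 to 0.39). Tags of any start that held nt 2 to 17 of this most abundant tag counted 2139 and 203 reads. Most of these reads did not have the seed at nt 2 to 8, where all tags outside the members held 291 and 84 reads. Whether this tag is a miRNA was not tested.
unnamed, miR-19 seed: cGTGCAAAtcggtcgtccg

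miR-106a and miR-18b share nt 2 to 17 with miR-17 and miR-18a, and their reads are included in these members. They differ outside this window, and were separated by the base that differs. Tags of miR-17 with A at nt 1, the first base of miR-106a, held 74 of the reads at peak and 136 at late lactation, with a log2 ratio of 2.24 (1.83 to 2.67). Tags with C at nt 1 gave a log2 ratio of 0.96 (0.88 to 1.04), or 1.94-fold, and made up 97.6% and 94.1% of the reads that start at nt 1. Tags of miR-18a with T at nt 20 had 7 reads at peak and 23 at late lactation, 2.81% and 6.44% of the reads that reach this base, and those with A at nt 20 gave a log2 ratio of 1.83 (1.58 to 2.07). The tags that carry these bases are shown beside the form of miR-17 with an extra first base.
miR-17 with A at nt 1: aAAAGTGCttacagtgcaggtag
miR-18a with T at nt 20: tAAGGTGCatctagtgcagtta
miR-17 with T before nt 1: tcAAAGTGCttacagtgcaggt

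The ends of the miRNAs also differed between the libraries. The matching rule uses neither the start nor the length of a tag. Of all member reads, 98.4% began at nt 1 at peak lactation (95% interval 98.3% to 98.5%) and 96.8% at late lactation. miR-17 had the lowest share in late lactation, 95.1% at peak (94.3% to 95.8%) and 87.9% at late lactation (86.6% to 89.1%). Reads with 1 extra base at the 5′ end numbered 71 (2.17%) and 261 (9.44%), and this base was T in 71 and 223 of them. A start 1 base earlier shifts the seed by that base. miR-19a carried the same extra T in 12 reads (5.66%) at peak and 32 reads (3.17%) at late lactation, a lower share. An extra A before nt 1 was found in 1 read of all members at peak lactation and in 235 reads at late lactation, spread over all 9 members, with 9 to 55 reads each. In the late library 14.0% of the high-quality reads had been removed by the authors as 5′ adaptor contaminants, against 0.0494% in the peak library. The part of this difference in the extra bases was not tested.

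At the 3′ end, the leading tag held a lower share of the reads in late lactation for 7 of 9 members, and forms that end earlier a higher share for 7 of 9. Among reads that begin at nt 1, these directions were seen in 46.7% and 58.9% of 752 other groups of tags with at least 50 such reads in each library. In miR-18a, the leading tag of 23 nt went from 81.2% to 36.9% of the reads, and shorter forms went from 7.20% to 44.3%. The form of 21 nt alone had 8 reads at peak and 90 at late lactation, and that of 22 nt 6 and 66 reads.
miR-18a, 21 nt: tAAGGTGCatctagtgcagat
miR-18a, 22 nt: tAAGGTGCatctagtgcagata
Shorter forms went from 1.47% to 11.9% in miR-17, from 1.41% to 12.2% in miR-20a, from 23.6% to 38.8% in miR-19a and from 31.9% to 47.0% in miR-19b. In miR-106b they made up 37.2% and 48.0%, and here the lengths changed places. Tags of 20 nt went from 31.2% to 15.1%, and tags of 21 nt from 5.85% to 32.7%.
miR-106b, 20 nt: tAAAGTGCtgacagtgcaga
miR-106b, 21 nt: tAAAGTGCtgacagtgcagat
In the remaining 3 members the share of shorter forms moved by less than 5 percentage points. The share of shorter forms was 6.42% and 6.34% in miR-93, 0.730% and 1.06% in miR-92a, and 14.2% and 10.02% in miR-25. In miR-92a the form with 1 added A at the 3′ end went from 22.5% to 12.7%, and in miR-25 the leading tag went from 60.3% to 71.1%.
miR-92a with added A: tATTGCACttgtcccggcctgta
Among reads that begin at nt 1, shorter forms gained at least 10 percentage points in 6 of 9 members and in 18.2% of the 752 other groups. Their median change was 11.7 points in the members and 1.26 points in the other groups. In the late library 4.14% of the high-quality reads had been removed by the authors as shorter than 18 nt, against 0.759% in the peak library. The part of this difference in the shorter forms was not tested. The mean length of all clean reads was 22.3 nt at peak and 21.7 nt at late lactation, and that of the members 22.7 and 22.4 nt. The means of the members include some reads longer than 30 nt, more of them at peak lactation. Reads of 25 nt or more made up 1.66% of the member reads at peak and 1.09% at late lactation.

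**Figure D4:**
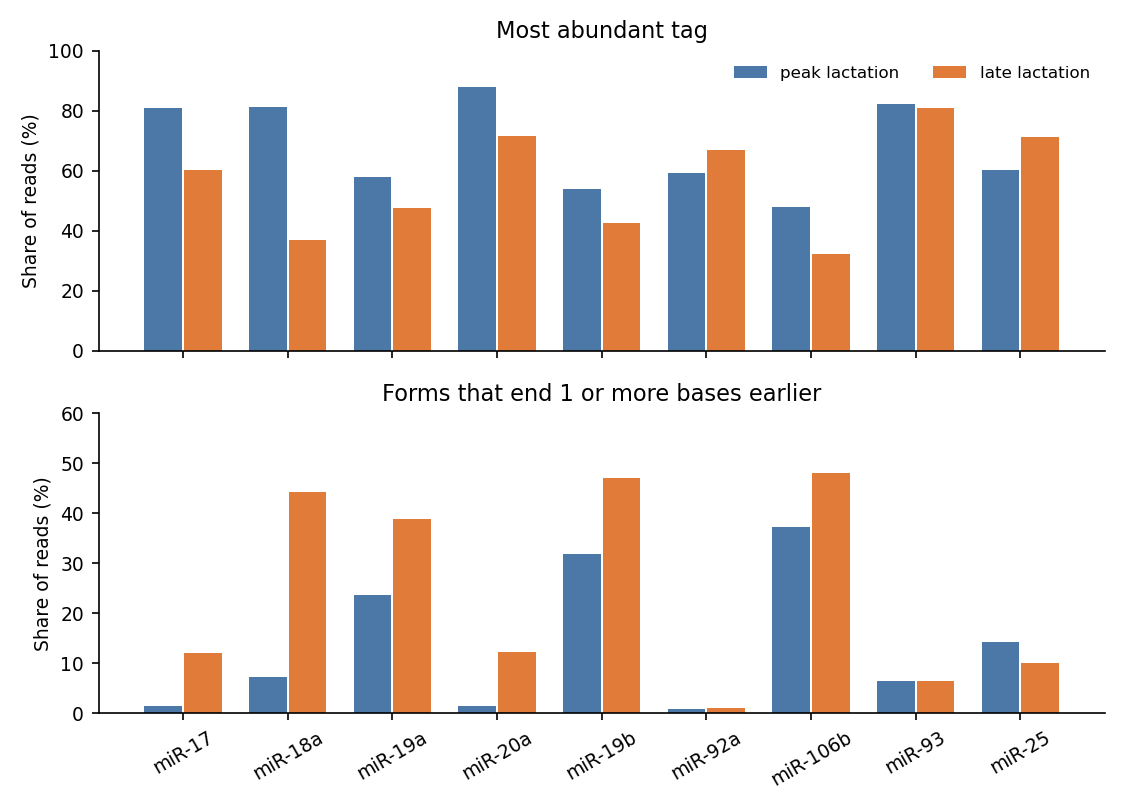
Share of each member's reads (%) in its most abundant tag (upper panel) and in forms of that tag that end 1 or more bases earlier (lower panel), in the peak (blue) and late (orange) lactation library. In miR-18a the leading tag goes from 81.2% to 36.9% and the shorter forms from 7.20% to 44.3%, while the bars of miR-93 are of like height in both libraries.

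**Figure D5:**
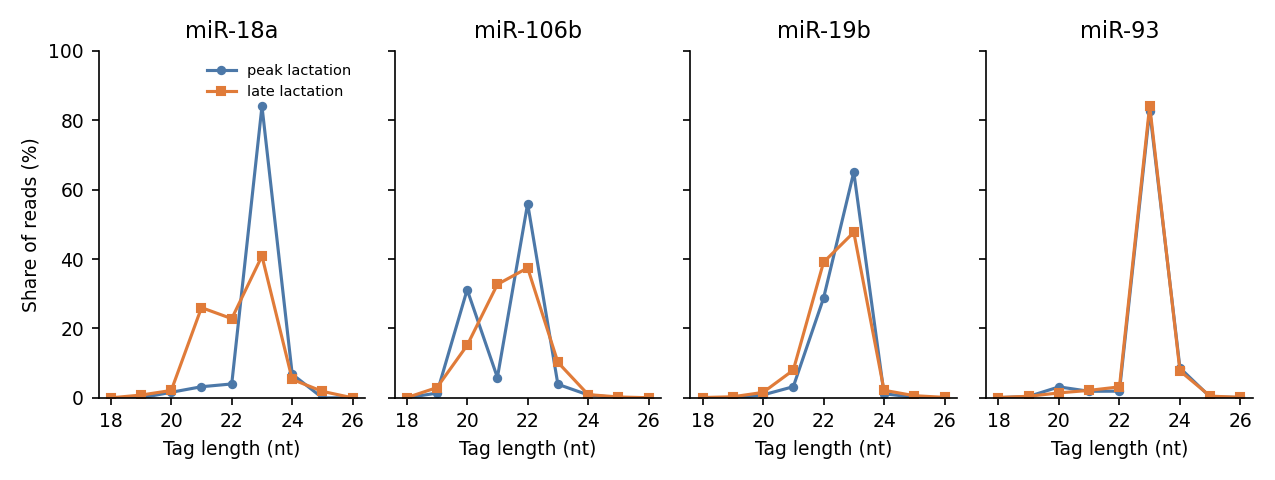
Length of the tags of miR-18a, miR-106b, miR-19b and miR-93, as share of each miRNA's reads (%) at 18 to 26 nt, in the peak (blue circles) and late (orange squares) lactation library. The peak of miR-106b at 20 nt goes from 31.2% to 15.1% and that at 21 nt from 5.85% to 32.7%, and the profiles of miR-93 lie on each other.

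The GC content of the leading tags ran from 34.8% in miR-19a to 54.5% in miR-92a. miR-19b and miR-20a both had 39.1%. Over the 9 members Spearman's rho of GC content and log2 ratio was -0.65, and over 1093 other groups of miRNA size 0.084; members of a seed group share much of their sequence, and all points share the same pair of libraries. The median log2 ratio was -0.39 in those of these groups with a GC content of up to 45.5%, the range that holds 5 members, and -0.31 in those of 45.8% to 55%, which holds the other 4. The part of GC content in the ratios was not tested.

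miRNAs typical of cell types of the gland also differed between the libraries, and 18 of 21 could be matched to a sequence. Of the red blood cell list 2 of 3 were at least 2-fold higher in late lactation (log2 ratios of miR-451 1.004 and miR-144 4.06, against -0.61 for miR-486), with a summed level of 1888 RPM at peak and 3285 RPM at late lactation. Of the white blood cell list 3 of 4 were at least 2-fold higher (miR-142-3p 1.42, miR-223 3.67 and miR-150 2.28, against -0.43 for miR-155), with 1198 and 1545 RPM in sum. Of the stroma and smooth muscle list 2 of 4 were matched, miR-143 at 0.81 and miR-145 at 3.28, with 189194 and 332734 RPM in sum. miR-126 of the endothelium was at -1.05, with 12701 and 6126 RPM. The 8 miRNAs of the mammary epithelium ran from -1.97 (miR-148a) to 3.12 (miR-375), 2 at least 2-fold higher and 3 at least 2-fold lower, with 133229 RPM at peak and 52805 RPM at late lactation in sum. Beside these counts, 28.7% of the 1102 groups of miRNA size were at least 2-fold higher and 27.8% at least 2-fold lower. The counting interval of miR-451 (0.98 to 1.03) reached to both sides of the 2-fold line. Ratios of these miRNAs were not recomputed under the alternatives below. None of the 18 was at 0 in either library, but a miRNA with a count of 0 could not have been matched. Cells of the blood are known to carry the members of both clusters, and the part of these cell types in the ratios above was not tested.

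Groups of tags outside these lists, with at least 10 RPM, were ranked by the distance of their log2 ratio from the members' median (0.96). The 3 nearest groups were given no name here, because no list of mature miRNAs was used. Their log2 ratios were 0.96, 0.96 and 0.97 over the same pair of libraries, on 98, 282 and 124 reads at peak lactation. Whether any of these tags is a more abundant miRNA with a changed base was not tested, so they are not shown to be separate RNAs.
unnamed tag a: aCTGGACTtggagtcacaaggc
unnamed tag b: gCGGATATgggactgagacca
unnamed tag c: gTTCAGCCacccgagattgagc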

How the data were processed

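The authors sequenced small RNA of 18 to 30 nt on an Illumina 1G analyser, removed low-quality, adaptor and short reads, and deposited raw counts per distinct tag for each library, without mapping or names, together with the counts of reads lost at each filter. Versions of the tools for trimming and collapsing: not given in the sources used here. Some of the deposited tags were longer than 30 nt and were kept. Counts were divided here by the clean reads. A single read stood for 0.0525 RPM at peak and 0.135 RPM at late lactation, and a count of 0 allows up to 3 reads (0.158 and 0.406 RPM). No list of mature miRNAs was used. Tags with a member's seed at nt 2 to 8 were sorted by nt 2 to 17, and among sequences with at least 50 reads the one whose reads lay nearest to those listed under the member's name in the study's supplement (within 15% in both libraries) took the name. This tolerance was set after the data were seen, and names were thus tied to that list. The names miR-92b, miR-142-5p, miR-199a-3p and miR-214 were given to no sequence, which does not mean that these miRNAs were absent. The planned background of all mature miRNAs was replaced by tags grouped by nt 2 to 17. The passenger strands were not analysed here.

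The members, lists and tests were chosen with earlier results of these data known. Named in the text were the 9 members, miRNAs of the same seeds, the leading tag of each, the cell type lists and the 3 groups nearest to the members' median. With 1 library per stage no test was run. Intervals of ratios and shares at the 95% level are Clopper-Pearson intervals, and those of the levels in RPM are exact Poisson intervals. The ratio, interval and 2-fold call were tested on simulated Poisson counts, for groups either unchanged or changed by more than 2-fold. Such counts hold counting error alone, so the simulation says nothing on PCR copies, goats or ratios near 2-fold. Scaling alternatives used TMM factors (edgeR 4.0.16) and size factors (DESeq2 1.42.0) in R 4.3.3. Calculations used Python 3.11.15, numpy 2.4.6, scipy 1.17.1 and matplotlib 3.10.9.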

Additional observations from a re-analysis of the deposited data

How the results depend on the processing

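Each ratio was recomputed under 8 alternatives, and the 9 members kept their direction in 8 of 8. The scaling alternatives among them add 1 constant of at most 0.085 in size to every log2 ratio. They could not reverse any member, as the ratio smallest in size was -0.21 (miR-93). Only the alternatives that change the tags counted could do so. TMM and DESeq2 factors over 12263 tags shifted all log2 ratios by -0.0026 and -0.025. With totals that leave out the 10 top tags of either library, the shift was 0.085, and the log2 ratios were 0.99 for miR-17-92, 0.55 for miR-106b-25, 0.49 for the seed AAAGTGC, 0.69 for ATTGCAC and 1.05 for the median of the members. With 6 members at least 2-fold higher there, miR-106b (1.03) and miR-25 (1.05) joined the 4. With tags of 21 to 24 nt the same 2 joined (1.23 and 1.001), and the log2 ratios were 0.51 for miR-106b-25, 0.43 for AAAGTGC and 1.11 for the median. With tags that start with nt 1 to 18, 3 members were at least 2-fold higher, and miR-17-92 gave 0.86 and AAAGTGC 0.36. The leading tag alone gave 0.71 for miR-17-92, 0.37 for miR-106b-25, 0.11 for AAAGTGC, 0.82 for miR-18a, 3.55 for the miR-19 pair, 0.81 for ATTGCAC and 0.70 for the median. It left 3 members at least 2-fold higher, miR-19a (3.33), miR-19b (3.63) and miR-25 (1.20). miR-17 and miR-18a fell under 2-fold there, so the set past 2-fold changed with the forms counted. At 1.5-fold, 7 members were higher, beside 36.3% of the 1102 groups. The ratios of the miR-19 pair stayed between 3.33 and 4.05.

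Groups at least 2-fold higher and lower numbered 2918 and 1932 with at least 1 RPM, 505 and 558 with at least 10 RPM, 316 and 306 with a leading tag of 20 to 24 nt in addition, and 11663 and 3026 with at least 1 read in both libraries. Member reads that start at nt 1 made up 98.7% and 97.2% when tags had at least 2 reads. The leading tag in place of a mature sequence, reads of 20 to 24 nt as the total and the limit of 20 to 24 nt were chosen after seeing the data. Scaling to all mature miRNAs and the arm shares were not run, because no mature list was used here. Leaving out a replicate was not possible with 1 library per stage. No paired analysis was possible because each stage has 1 library.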
